A study of Mus musculus with 6 samples.

Results

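Long intergenic noncoding RNAs (lincRNAs) of large peritoneal macrophages were taken as the rows that the deposited table classes as lincRNA, lie outside chromosomes X and Y and hold at least 100 raw counts over 6 libraries. The table has 20336 genes, of which 924 are classed as lincRNA. Of these, 159 reached the count minimum, 2 lay on X or Y, and 157 remained. Members were thus selected on their total count, so that they were detected is no finding. The last members inside it were Gm12319, 2610037D02Rik and B230303O12Rik with 100 counts each, and the first outside it were Gm42595 and Gm30411 with 99 and Gm10605 with 98.

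Large peritoneal macrophages are the most numerous macrophages of the resting mouse peritoneum. They were sorted by surface staining 30 min after mice were injected intraperitoneally with E. coli, and polyA RNA was sequenced. The 3 floxed control libraries came from PAC F/F mice, which carry a floxed gene for the proton-activated chloride channel, PAC. The 3 PAC knockout libraries are labelled Cxcr3-PAC-/-, but the design text gives the driver as Cx3cr1. Every library came from infected animals; libraries of animals given PBS were not analysed here. Animal age is not given in the labels or design text. A driver is named for the knockout only, so an effect of a driver allele and loss of the channel cannot be told apart. Nothing in the labels ties a library to its own animal, and the spread that p-values are set against here is that between libraries and may be purely technical.

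The targeted gene, listed under its older name Tmem206, held 6.33, 12.2 and 8.16 CPM (counts scaled to library size) in the controls (replicates 1, 2 and 3, an order kept throughout). The knockouts held 4.27, 6.13 and 5.49 CPM, in the same order of replicates. Every knockout library lay below every control library, but the log2 fold change of -0.75 did not pass edgeR's quasi-likelihood test (adjusted p = 0.997). Library totals ranged from 15981530 to 20648832 counts, so the level that a count of 0 allows was 0.154 to 0.190 CPM by library (3 counts; counting error only). Summed markers of large peritoneal macrophages stood at 10284 to 14422 CPM in the controls and 11947 to 13798 CPM in the knockouts. Summed B cell markers reached 202 CPM in control replicate 2 and 19.95 to 115 CPM in the other libraries. Small peritoneal macrophage and monocyte markers summed to 82.5 to 159 CPM in the controls and 33.6 to 62.7 CPM in the knockouts, and neutrophil markers to 1.16 to 4.17 CPM and 5.21 to 11.1 CPM. Neither of these pairs of ranges overlapped. Mast cell markers summed to 3.35 to 7.21 CPM against 2.11 to 33.2 CPM, and T and NK cell markers to 1.32 to 3.07 CPM against 2.66 to 4.27 CPM. S100a9, Ly6g and Retnlg, 3 of the 4 neutrophil markers, had no count in at least 1 library. The highest mean was that of Alox15 among large peritoneal macrophage markers (8317 CPM), Ccr2 among small ones (51.7 CPM) and S100a8 among neutrophil markers (3.53 CPM). These genes weigh most in their sums.

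A lincRNA is transcribed by RNA polymerase II from a locus between protein-coding genes, and is capped and usually spliced and polyadenylated like a messenger RNA. Known members act in the nucleus (Malat1, in speckles, and Neat1, the scaffold of paraspeckles), bind proteins or microRNAs in the cytoplasm (Norad and Cyrano), or are hosts whose introns or exons are cut into microRNAs and small nucleolar RNAs (snoRNAs). In macrophages, microRNA-155 and its host transcript are induced by bacterial products, and the transcripts next to Ptgs2 and Bcl2l11 have been studied for their effect on inflammation and myeloid cell survival in mice.

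Sequences that define the best-known members are shown first, because the counts of a host or a near-identical copy can only be read against them. RefSeq (GRCm38.p6) places 20 mature microRNAs, with 18 distinct seeds, inside 5 of the 157 lincRNAs. Of the 15 in the 3 listed hosts, both arms of miR-155 and miR-142a and 1 arm of each microRNA of the Mir17hg cluster follow, with the seed (bases 2 to 8) in capitals. miR-155 lies in Mir155hg on the plus strand (5p arm at chr16:84714143-84714165), miR-142a in Mir142hg on the plus strand (5p arm at chr11:87756867-87756887), and the miR-17 to miR-92a cluster in Mir17hg on the plus strand (miR-17-5p at chr14:115043684-115043706).
mmu-miR-155-5p: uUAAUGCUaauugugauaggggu
mmu-miR-155-3p: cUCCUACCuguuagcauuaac
mmu-miR-142a-5p: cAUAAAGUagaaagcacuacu
mmu-miR-142a-3p: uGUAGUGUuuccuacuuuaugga
mmu-miR-17-5p: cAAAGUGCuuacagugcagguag
mmu-miR-20a-5p: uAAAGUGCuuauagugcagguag
mmu-miR-18a-5p: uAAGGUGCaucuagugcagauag
mmu-miR-19a-3p: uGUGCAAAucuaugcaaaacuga
mmu-miR-19b-3p: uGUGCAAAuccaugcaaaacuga
mmu-miR-92a-3p: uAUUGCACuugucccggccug
Within Mir17hg, miR-17-5p and miR-20a-5p share the seed AAAGUGC and miR-19a-3p and miR-19b-3p share GUGCAAA. PolyA libraries count the host transcript and not the mature microRNA.

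Cyrano, listed as 1700020I14Rik (chromosome 2), is known for a single long site for miR-7, which it targets for decay. The GENCODE M21 transcript carries that site from base 2933 on, and it pairs with all 13 of the 13 compared bases of miR-7a-5p outside the seed. Capitals mark the seed in the microRNA and the bases that pair with it in the site.
miR-7a-5p: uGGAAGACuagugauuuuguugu
1700020I14Rik site: gaacaacaaaatcaccaatGTCTTCCa

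Malat1 (chromosome 19) has no poly(A) tail of its own. Its end is formed by cleavage just before mascRNA, a tRNA-like small RNA, and is protected by an A-rich stretch that the genome encodes. In the GENCODE M21 transcript of 6983 bases, the longest run of A is 12 bases, at positions 6674 to 6685. It is shown in capitals with the bases on either side, and the site of cleavage is not marked.
Malat1: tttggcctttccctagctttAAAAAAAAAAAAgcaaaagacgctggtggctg

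Gm10076 (chromosome 14, 105681828 to 105682211, plus strand, GRCm38) is a single-exon lincRNA that is nearly the same in sequence as Rpl41 (chromosome 10), which encodes a very small protein of the large ribosomal subunit. Over 383 aligned bases the transcripts were 99.5% identical and differed by 2 substitutions, C126T and G233A (the Rpl41 base, the position from 1 at the 5′ end of Gm10076, then the Gm10076 base). The differing base is in capitals.
Gm10076 at 126: agtaagccagccTgtgcacctacga
Rpl41 at 126: agtaagccagccCgtgcacctacga
Gm10076 at 233: tagacctggaacAtcacctcgccgc
Rpl41 at 233: tagacctggaacGtcacctcgccgc
A read that lies within the aligned bases and covers neither position cannot be assigned to one of the genes. Rpl41 was chosen for description after its values were seen.

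The 157 lincRNAs were scarce. They took 0.160 to 0.236% of the counts of a library, and their median level was 2.58 CPM, against 16.2 CPM over the 12786 genes tested. Per kilobase of gene length the median was 1.30 CPM, against 4.48 CPM for the 11338 protein-coding genes tested. A mean of at least 10 CPM was reached by 27 members, at least 50 CPM by 6 and at least 100 CPM by 4. Those 4, Gm26809, Malat1, Neat1 and Gm48832, held 51.2% of all lincRNA counts, and the top 10 held 66.9%. Annotated transcripts were shorter (median longest transcript 2046 bases, against 3152 for protein-coding genes) and had a lower GC content (46.5% against 50%), and 26 members had a single exon after merging.

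The most abundant lincRNA was Gm26809 (chromosome 6, 18844220 to 18847360, plus strand), a transcript without a known role that ends 1219 bases before Lsm8. It stood at 457, 328 and 318 CPM in the controls and at 459, 491 and 425 CPM in the knockouts. Control replicate 1 was as high as the knockouts and the other controls were lower, so the groups overlapped (log2 fold change 0.32, SE 0.16). Per kilobase it led all members at 139 CPM, followed by Gm10076 at 77.6, Malat1 at 42.1, Gm48832 at 39.6 and Gm36161 at 31.9 CPM per kilobase. Neat1, the longest of these transcripts, had 6.71 CPM per kilobase.

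Malat1 varied more between libraries than any other of the 6 members above 50 CPM. It stood at 753, 323 and 136 CPM in the controls and at 265, 163 and 123 CPM in the knockouts. Control replicate 1 held 6.11 times the level of the lowest library, and control replicate 3 lay among the knockouts. The log2 fold change was -1.14 with an SE of 0.68. The share of counts on sense-intronic and unverified (TEC) genes was 0.0730, 0.0614 and 0.0401% in the controls and 0.0497, 0.0528 and 0.0462% in the knockouts. It was highest in the same 2 libraries as Malat1, control replicates 1 and 2, and its part in the Malat1 level was not tested. Leaving Malat1 out narrowed the lincRNA share of a library to between 0.146 and 0.172%.

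Neat1, by contrast, stood at 166, 162 and 80.0 CPM in the controls and 137, 159 and 131 CPM in the knockouts, low in control replicate 3 only (log2 fold change 0.07, SE 0.26). The cytoplasmic RNAs were steady. Norad, listed as 2900097C17Rik and known to bind the Pumilio repressors and keep chromosome number stable, stood at 80.2, 87.1 and 95.6 CPM against 93.2, 76.6 and 87.4 CPM. Cyrano stood at 77.7, 78.2 and 65.5 CPM against 90.6, 68.5 and 81.6 CPM. The log2 fold changes were -0.03 (SE 0.13) for Norad and 0.12 (SE 0.14) for Cyrano, and both groups overlapped. Norad carried 11 copies of the Pumilio response motif (transcript strand only), 2.24 per kilobase, whereas the median was 0 in members and in protein-coding genes. Gm48832, upstream of the cytoplasmic poly(A) polymerase gene Tent5a, stood at 142, 118 and 139 CPM against 152, 148 and 114 CPM and overlapped likewise.

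**Figure D1:**
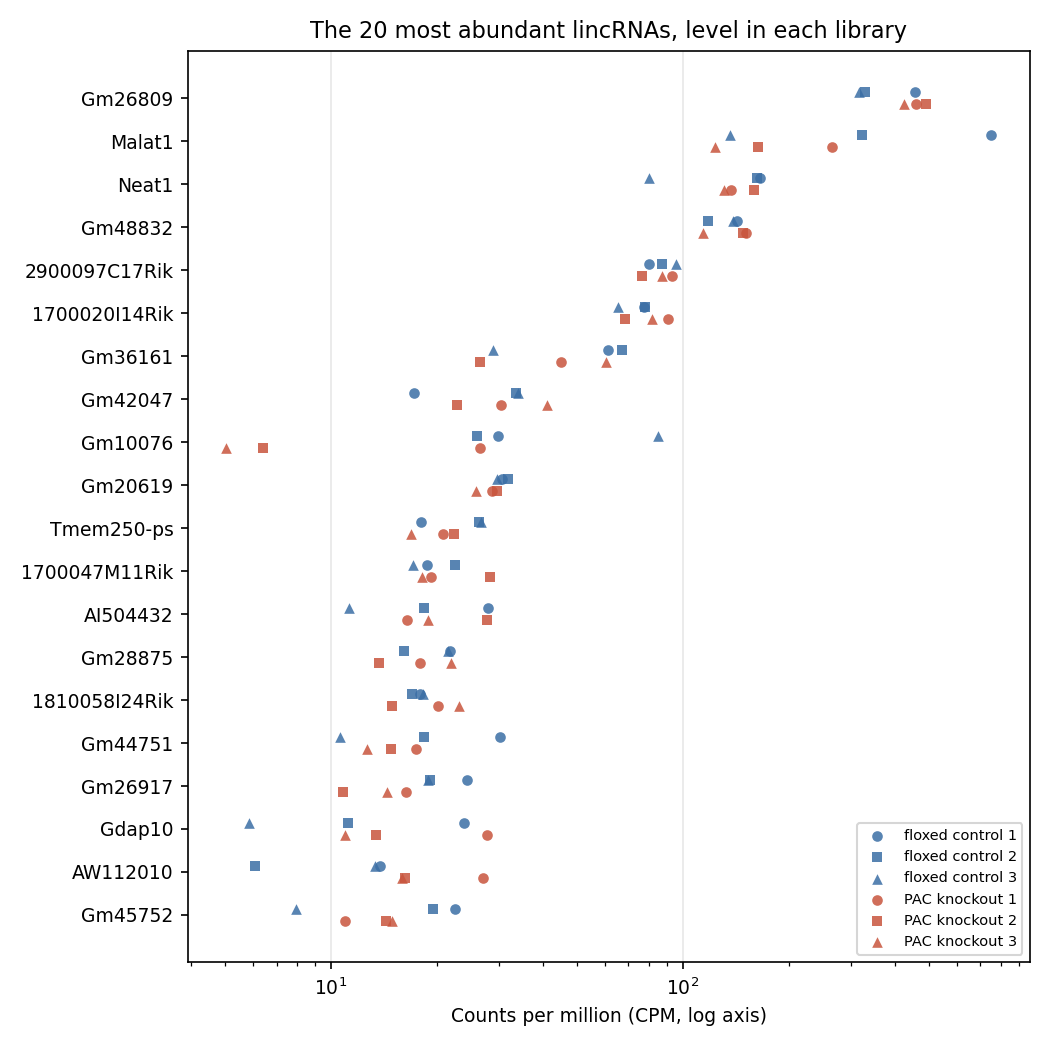
Level of the 20 lincRNAs of highest mean CPM in each of the 6 libraries (CPM, log axis; blue, floxed control; red, PAC knockout; the marker shape is the replicate number). Malat1 and Gm10076 spread most, with 6.11-fold and 16.9-fold between the highest and the lowest library, whereas Norad (2900097C17Rik) spread 1.25-fold.

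Knockout and control were compared for all 12786 genes that passed edgeR's expression filter, which kept all 157 lincRNAs. In bulk RNA, fewer cells that make a transcript and less of it per cell cannot be told apart. No lincRNA was called at an adjusted p under 0.05, where 0% of all genes tested were called. DESeq2 and limma-voom also called 0 lincRNAs. Over all genes DESeq2 did make calls, numbered in the last section, and the count for limma-voom is not given here. The smallest adjusted p of a member was 0.997 in edgeR. In the authors' deposited table the smallest adjusted p of a member was 0.764, for Mir142hg, and 22 genes of any class had one under 0.05. Of the 157, 74 had a log2 fold change above 0 (47.1%, against a background of 48.8%) and 83 below 0 (52.9%, against 51.2%). The median was -0.03, beside -0.0079 over all genes tested, and was above 0 without control replicate 1 (0.042), 2 (0.027) or 3 (0.0098).

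An unadjusted p under 0.05 was reached by 10 lincRNAs, or 6.37%, where the background over all genes was 4.18%. Higher values in the knockout accounted for 8 of them (5.1%, background 2.09%) and lower values for 2 (1.27%, background 2.09%). The count changed when single libraries were left out. It was 5 without control replicate 1, 5 without control replicate 2 and 6 without knockout replicate 2. Without control replicate 3 it was 15. The share of all genes in the same refits is not given here, so these shifts cannot be read as particular to lincRNAs. Knockout and control did not overlap for 13 lincRNAs (8.28%, background 9.33%), of which 10 were higher in the knockout (6.37%, background 4.47%) and 3 lower (1.91%, background 4.86%). Summed neutrophil markers were higher and summed small peritoneal macrophage markers lower in every knockout library, as given above. Their part in these counts was not tested.

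**Figure D2:**
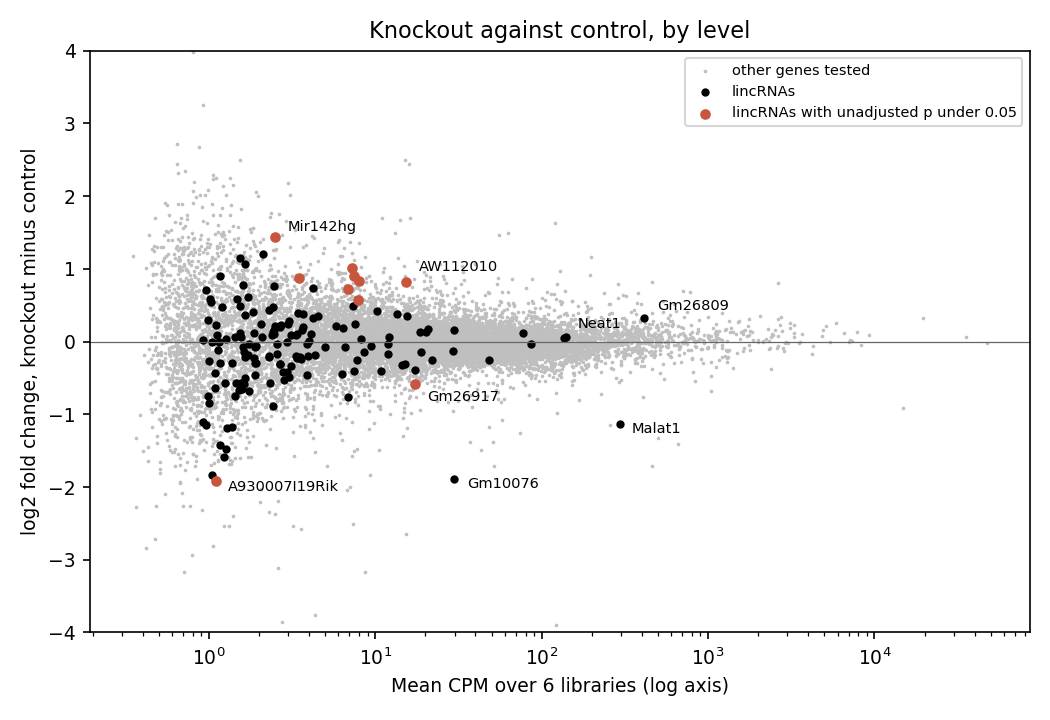
log2 fold change of knockout against control by mean CPM (log axis) for the genes tested (grey) and the 157 lincRNAs (black; red where the unadjusted p was under 0.05). No point passed the adjusted threshold; 4 genes lie beyond the plotted range of 4 in either direction.

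The median error was wider in members with fewer counts. The median SE of a log2 fold change was 0.71 for the 57 members with under 200 counts in all, 0.49 for the 55 with 200 to under 500, 0.32 for the 18 with 500 to under 1000 and 0.26 for the 27 with 1000 or more. Over all genes tested it was 0.23. The median size of a log2 fold change, without its sign, was 0.30 in lincRNAs and 0.17 over all genes, and the median SD within a group on log2(CPM + 0.1) was 0.61 against 0.28. The highest library exceeded the lowest more than 5-fold in 38 members and less than 2-fold in 27. Wide errors also occurred at high counts, as in Malat1 (32054 counts, SE 0.68) and Gm10076 (3283 counts, SE 0.85). Counting error and spread between libraries were not separated.

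AW112010, an inflammatory transcript of myeloid cells that has been shown in mice to encode a protein, was the most abundant of the 10 lincRNAs with higher values and no overlap. It stood at 13.8, 6.09 and 13.4 CPM in the controls and 26.98, 16.2 and 15.9 CPM in the knockouts. Control replicate 2 was the lowest library and knockout replicate 1 the highest, and the remaining 4 lay between 13.4 and 16.2 CPM. The log2 fold change was 0.83 (SE 0.33, unadjusted p = 0.031 in edgeR's test, adjusted p = 0.997). Its promoter as RefSeq gives it (GRCm38.p6, minus strand, chr19:11050517-11050816, 250 bases before to 50 after the start) is shown because it holds a match to an NF-kappaB consensus motif, in capitals as it reads on this strand (the motif itself lies on the other), at -70 from the start.
AW112010 promoter: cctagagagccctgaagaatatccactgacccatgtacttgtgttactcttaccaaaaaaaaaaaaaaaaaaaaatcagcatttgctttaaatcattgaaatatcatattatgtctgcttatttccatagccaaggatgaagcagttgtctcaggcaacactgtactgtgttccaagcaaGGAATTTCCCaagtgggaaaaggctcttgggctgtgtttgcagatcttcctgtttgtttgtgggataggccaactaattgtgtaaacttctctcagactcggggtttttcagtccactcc
That motif, sought on both strands, occurred in 4.59% of 32851 RefSeq promoters and in 5.88% of the 85 promoters matched to 73 members. The match is a description of these letters only.

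Mir142hg, host of the blood-cell microRNA miR-142, stood at 1.29, 1.22 and 1.53 CPM in the controls and 4.68, 1.77 and 4.49 CPM in the knockouts. The controls lay close together, and knockout replicate 2 was little above them (log2 fold change 1.44, SE 0.50, unadjusted p = 0.016 in edgeR's test, adjusted p = 0.997). Mir155hg went the other way, at 21.5, 9.51 and 6.16 CPM in the controls and 11.6, 10.6 and 5.99 CPM in the knockouts. The groups overlapped, and the value of control replicate 1 set the sign: the log2 fold change was -0.40 (SE 0.46) with all libraries and 0.26 without it. Mir17hg stood at 5.56, 2.73 and 3.69 CPM against 3.80, 3.03 and 5.26 CPM, a log2 fold change of 0.01 (SE 0.40). Of 12 listed microRNA hosts of any gene class, 6 were tested, 5 had values above 0 and 1 below, and 0 were called. The split was 2 above and 4 below without control replicate 2, and 3 and 3 without control replicate 3 or knockout replicate 3. Their median log2 fold change was 0.08, which became 0.29 without control replicate 1, -0.06 without control replicate 2, 0.22 without knockout replicate 2 and 0.026 without knockout replicate 3.

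Of the 3 listed snoRNA hosts among the 157 lincRNAs, Snhg6 and Epb41l4aos had higher values in every knockout library than in any control, and Snhg12 overlapped. snoRNAs guide the chemical modification of ribosomal RNA and are cut from the introns of these hosts. Snhg6, host of Snord87, stood at 5.71, 3.83 and 7.74 CPM in the controls and 12.04, 8.09 and 10.6 CPM in the knockouts, without overlap (log2 fold change 0.83, SE 0.31). Epb41l4aos stood at 4.89, 4.12 and 6.53 CPM against 7.65, 7.59 and 10.5 CPM, also without overlap (0.73, SE 0.29). Snhg12, host of Snora16a, Snora44, Snora61 and Snord99, stood at 5.10, 4.29 and 11.3 CPM against 6.58, 9.23 and 8.65 CPM. There control replicate 3 was the highest of all 6 libraries, and the groups overlapped (0.24, SE 0.37); without control replicate 2 its log2 fold change was -0.0032. Neither Snhg6 nor Epb41l4aos passed the adjusted threshold (adjusted p = 0.997 for both in edgeR's test).

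Hosts of other gene classes were read beside them. Of 21 listed snoRNA hosts, 18 were in the table and 15 were tested: 13 had a log2 fold change above 0, 2 below, and 0 were called. An unadjusted p under 0.05 was reached by 4 of the 15, namely Snhg5, Snhg6, Snhg11 and Epb41l4aos, beside 4.18% of all genes. The median log2 fold change of the 15 was 0.34, against -0.0079 over all genes, and Gas5, the most abundant, stood at 46.9, 23.7 and 45.1 CPM against 46.8, 43.2 and 56.2 CPM. The median lay between 0.30 and 0.55 when each library was left out, at its highest without control replicate 3. The hosts were not equally low in the controls: their median distance from the 6-library mean on the log2 scale was -0.23, -0.58 and 0.05 for the controls and 0.22, 0.13 and 0.28 for the knockouts. Control replicate 2, the lowest, was also the library with the highest B cell marker sum. B cell sums were 31.1, 202 and 19.95 CPM in the controls and 115, 23.5 and 61.5 CPM in the knockouts. The next highest sums were thus in knockout replicates 1 and 3, where the hosts stood at 0.22 and 0.28. Without control replicate 2 the median log2 fold change of the hosts was 0.40. Across the groups, neutrophil markers (1.16 to 4.17 CPM in the controls, 5.21 to 11.1 CPM in the knockouts) and small peritoneal macrophage and monocyte markers (82.5 to 159 CPM, 33.6 to 62.7 CPM) also differed without overlap. The part of these marker sums in the host values was not tested.

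**Figure D3:**
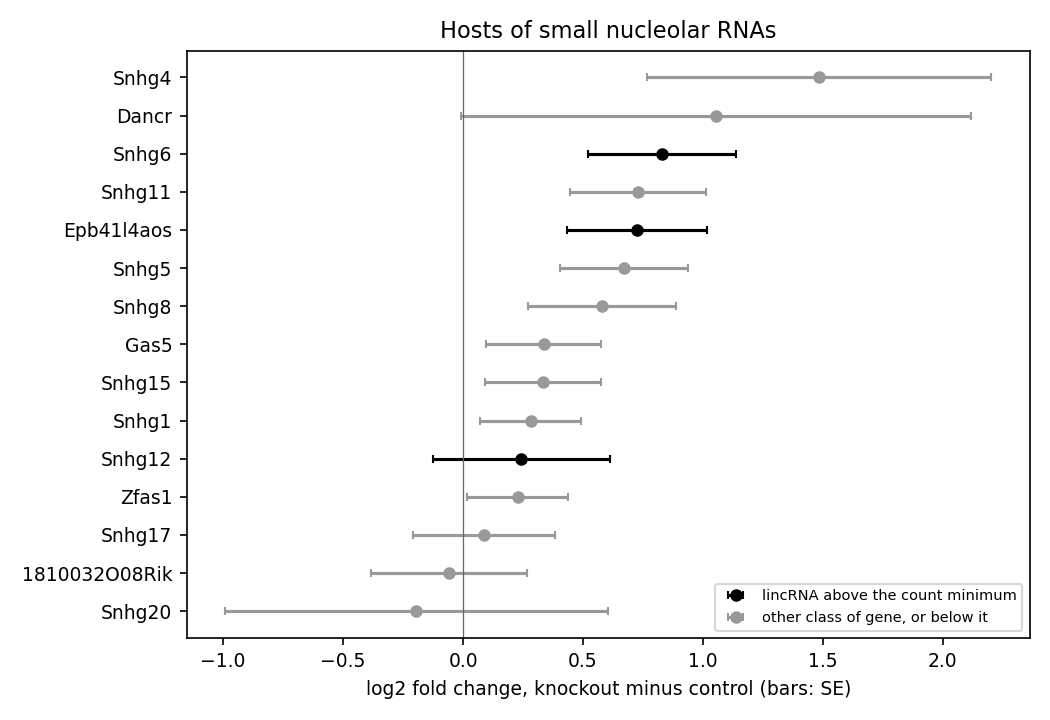
log2 fold change of knockout against control, with its SE, for the 15 snoRNA hosts tested (black, lincRNAs above the count minimum; grey, hosts of another gene class or below it). Of the 15 points 13 lie above 0, and none passed the adjusted threshold.

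Among the other members without overlap, A130077B15Rik had the tightest groups, at 6.85, 5.28 and 6.90 CPM in the controls and 9.07, 8.92 and 10.2 CPM in the knockouts (log2 fold change 0.57, SE 0.25). Gm39556 stood at 2.11, 2.61 and 2.63 CPM against 5.28, 4.62 and 3.55 CPM (0.87, SE 0.37). Its nearest protein-coding neighbour in the deposited table, Ly6e, averaged 459 ± 53.02 CPM in the controls and 610 ± 152 CPM in the knockouts (SD, n = 3). Gm14321, Gm28901 and Gm26792, at mean levels of 0.81 to 3.11 CPM in either group, also had higher knockout values. Of the exon bases of Gm28901, 85.7% lie opposite a pseudogene of Hnrnpf. Over 86.5% of its transcript Gm28901 is also 99.5% identical to the opposite strand of Hnrnpf itself. Hnrnpf held 22274 counts and Gm28901 held 160, and their reads may not be told apart over those bases. Gm33280 reached an unadjusted p of 0.040 in edgeR's test (log2 fold change 1.02) with groups that overlapped, at 2.99, 4.64 and 6.84 CPM against 14.9, 9.61 and 4.82 CPM.

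Gm20186 stood at 5.56, 2.67 and 7.32 CPM in the controls and 9.19, 9.42 and 10.5 CPM in the knockouts (log2 fold change 0.90, SE 0.35, unadjusted p = 0.025 in edgeR's test). It lies opposite Gm26809, and 855 bases, 81.4% of its exon bases, are also exon of Gm26809. No source used here gives the strand setting of the counting, so reads of Gm20186 and of the far more abundant Gm26809 cannot be told apart over those bases. Gm20186 starts 372 bases from Lsm8 on the other strand, and Lsm8, which encodes a U6 snRNA-binding protein, had a log2 fold change of 0.35 (SE 0.23).

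Lower knockout values without overlap were seen in Gm26917, Gm17767 and A930007I19Rik. Gm26917 stood at 24.3, 19.1 and 18.8 CPM in the controls and 16.3, 10.8 and 14.5 CPM in the knockouts (log2 fold change -0.58, SE 0.21, unadjusted p = 0.019 in edgeR's test). It is a single-exon transcript (chromosome 17, 39843013 to 39846341, plus strand) that ends 12 bases before Rn18s-rs5, an 18S ribosomal RNA-related sequence in RefSeq; whether its reads are ribosomal precursor was not tested. A930007I19Rik stood at 2.06, 1.68 and 1.47 CPM against 0.296, 0.632 and 0.443 CPM (-1.91, SE 0.67), a total of 120 counts. GENCODE M21 classes it as antisense, and its gene body overlaps that of Ric1, with starts 877 bases apart. Gm17767 stood at 1.13, 2.15 and 2.47 CPM against 0.889, 0.696 and 0.942 CPM (-1.18, SE 0.60). These last values are near the lower end of what was measured, where 1 library holds few counts of each gene.

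**Figure D4:**
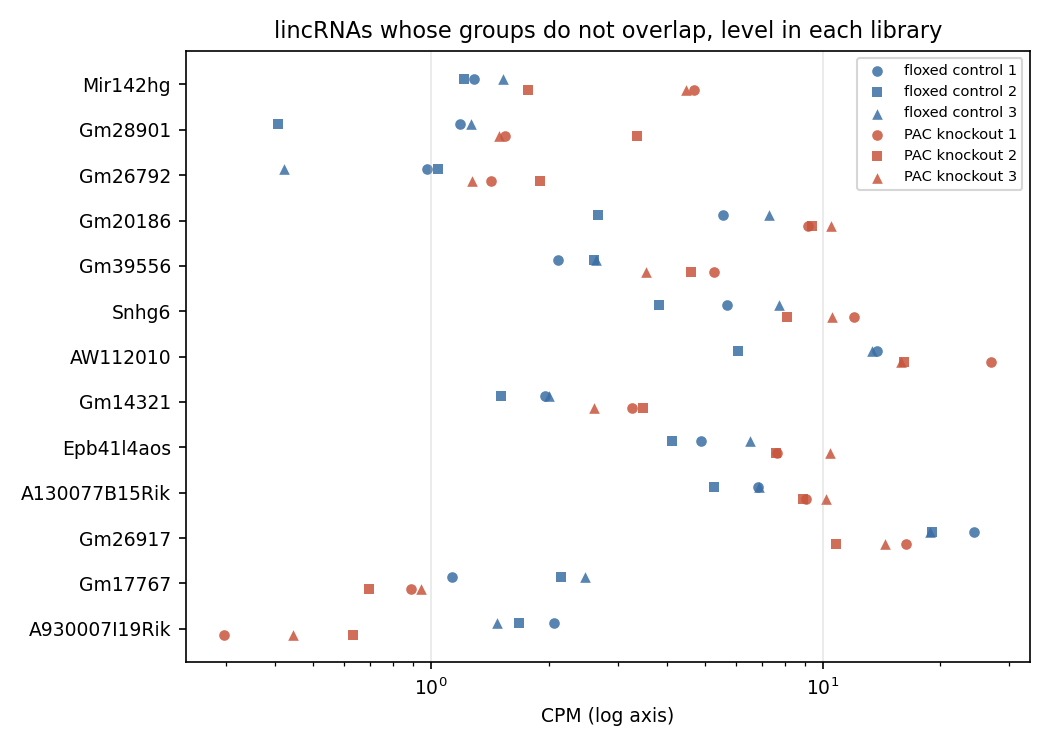
Level in each library (CPM, log axis) of the 13 lincRNAs whose knockout and control libraries did not overlap, ordered by log2 fold change (blue, floxed control; red, PAC knockout; marker shape, replicate number). The 10 upper rows lie to the right in the knockouts and the 3 lower rows to the left, most of them at under 10 CPM.

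Gm10076 had the lowest log2 fold change of the 27 lincRNAs with a mean of at least 10 CPM, but it cannot be read apart from Rpl41. Gm10076 stood at 29.8, 25.98 and 85.2 CPM in the controls and 26.4, 6.39 and 5.04 CPM in the knockouts. Control replicate 3 stood far above the rest, knockout replicate 1 lay among the controls, and the groups overlapped (log2 fold change -1.90, SE 0.85). Rpl41 went the opposite way, at 245, 198 and 186 CPM against 312, 393 and 384 CPM without overlap (0.79, SE 0.15, adjusted p = 0.997 in edgeR's test). Gm10076 took 10.8, 11.6 and 31.4% of the counts of the pair in the controls and 7.81, 1.60 and 1.30% in the knockouts. The sum of both averaged 257 ± 28.4 CPM in the controls and 376 ± 32.7 CPM in the knockouts (SD, n = 3). No source used here says how reads with several matching genes were counted, so a change in the level of either gene and a different division of shared reads cannot be told apart.

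**Figure D5:**
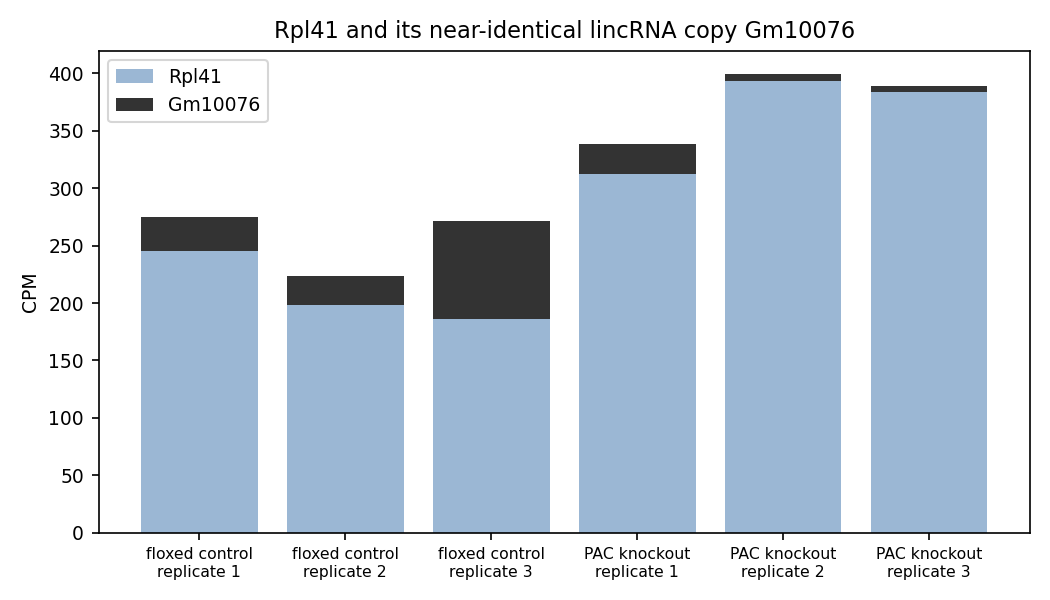
CPM of Rpl41 (blue) and of its near-identical lincRNA copy Gm10076 (black), stacked, in each library. The black part takes between 1.30 and 31.4% of a bar and is largest in control replicate 3, whereas the whole bar is higher in each knockout than in each control.

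Unlike AW112010, the other listed transcripts described here that are linked to inflammation, cell survival or p53 in mice overlapped between the groups. Ptgs2os2, known as lincRNA-Cox2, stood at 2.99, 1.86 and 2.90 CPM against 1.72, 4.68 and 1.22 CPM (log2 fold change -0.03, SE 0.56), with knockout replicate 2 the highest. Its neighbour Ptgs2, which encodes cyclooxygenase-2, averaged 2349 ± 682 CPM in the controls and 2920 ± 451 CPM in the knockouts (SD, n = 3; log2 fold change 0.31). Gm14005, known as Morrbid, stood at 2.63, 1.57 and 6.11 CPM against 3.56, 3.86 and 4.10 CPM (0.16, SE 0.48), and its neighbour Bcl2l11, a pro-apoptotic gene, had a log2 fold change of 0.12 (SE 0.25). Pvt1, downstream of Myc, stood at 5.51, 7.13 and 5.79 CPM against 8.89, 6.77 and 10.3 CPM (0.49, SE 0.27), while Myc had -0.09 (SE 0.25). Lncpint, a p53-induced transcript, stood at 3.96 CPM in control replicate 1 and between 0.222 and 1.14 CPM in the other 5 libraries. Its log2 fold change of -1.42 (SE 0.95) became 0.20 without that library.

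The lists these genes came from gave no call. Of 10 listed macrophage and inflammatory lncRNAs, 7 were tested, 3 with values above 0 and 4 below (median log2 fold change -0.03). Of 5 p53 and DNA damage lncRNAs all 5 were tested, 2 above and 3 below (median -0.09). Of 6 nuclear-retained RNAs 4 were tested, 1 above and 3 below (median -0.32). Of 9 imprinted lncRNAs 2 were tested, both below 0 (median -0.31), and neither was a lincRNA above the count minimum. Both listed cytoplasmic RNAs, Norad and Cyrano, are given above.

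Of the further members among the 20 most abundant, Gm36161, Gm42047, Gm20619, Tmem250-ps, 1700047M11Rik, AI504432, Gm28875, 1810058I24Rik, Gm44751, Gdap10 and Gm45752 all overlapped between the groups, with log2 fold changes from -0.40 in Gm44751 to 0.35 in Gdap10. Gm20619 was the steadiest, at 30.7, 31.8 and 29.6 CPM in the controls and 28.7, 29.7 and 25.8 CPM in the knockouts. Gdap10 was uneven, at 23.8, 11.2 and 5.84 CPM against 27.7, 13.4 and 10.97 CPM, high in replicate 1 of both groups. Its gene body overlaps Nampt, the NAD salvage enzyme, which stood at 196, 99.0 and 109 CPM against 250.4, 140.2 and 131 CPM and was likewise highest in these 2 libraries. AI504432 stood at 28.0, 18.4 and 11.3 CPM against 16.5, 27.7 and 18.8 CPM.

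Neighbours of the lincRNAs were sought among the protein-coding genes of the deposited table only, so a gene outside the table may lie closer. The nearest such gene was within 5000 bases for 79 of the 157, and the median distance over all 157 was 4608 bases. By position, 41 were head to head with that neighbour, 34 downstream of it on the same strand, 32 upstream on the same strand, 24 tail to tail and 26 overlapped its gene body. Of 144 pairs with a tested neighbour, 75 had log2 fold changes of the same sign (Pearson r = 0.09 across pairs, which share libraries and are not independent). Of the 17 pairs that start head to head within 2 kb of each other, 10 had the same sign, with a Pearson r of 0.64 and a Spearman rho of 0.55 across pairs. Among them, Fam78b is the neighbour of each Gm16701 entry. Of the 24 tested pairs with overlapping gene bodies, 11 had the same sign (Pearson r = -0.12). Of the 120 tested pairs without such overlap, 64 had the same sign (r = 0.13). These pairs also share the libraries, and the values are a description only. Exon bases were shared with another gene by 42 members, 20 of them with a protein-coding gene, and 7 members were near-identical over at least 50% of a transcript to a transcript elsewhere. Either kind of sharing applied to 47 members.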

How the data were processed

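PolyA RNA of sorted large peritoneal macrophages was sequenced in 3 libraries per genotype. Per the submitters' processing notes, HISAT2 2.0.5 aligned the reads to mm10 (GRCm38) and featureCounts 1.5.0-p3 gave the gene counts. Not given in the sources used here are the strand setting, the annotation release and what was done with reads of several matching genes; overlapping and near-identical genes may share counts. The deposited table holds raw counts, and these alone were tested. It also gives a normalised signal and FPKM (computed by the authors from gene length and count, per the labels' protocols) and the authors' log2 fold changes and p-values; of these only the authors' adjusted p-values are quoted.

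Genes were kept by edgeR's default filter, scaled by TMM and tested with edgeR 4.0.16's robust quasi-likelihood test (two-sided, R 4.3.3; genotype as the only term; Benjamini-Hochberg over 12786 genes, threshold 0.05). Rows of the 157 lincRNAs were then read out. The SE of a log2 fold change is not a direct output of the fit. It is the size of the log2 fold change divided by the square root of edgeR's quasi-likelihood F. CPM use TMM-scaled totals. Alternatives included DESeq2 1.42.0 and limma 3.58.1. The script was tested on simulated data. Sequences came from RefSeq (GRCm38.p6) and GENCODE M21, in which all 157 gene IDs were found; near-identical transcripts had at least 97% identity (blastn 2.17.0).

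The members, gene lists and tests were chosen with earlier results of these data known. Named lincRNAs were the 20 of highest mean CPM, listed genes, up to 10 per direction without overlap and of smallest p, and those next to the count minimum. Gm33280 was named outside these rules, because its unadjusted p in edgeR's test was under 0.05. The 38 members followed through the refits leave out Gm33280 and those next to the count minimum. The listed Snhg16 was matched to 1810032O08Rik, and Cyrano and Norad to Rik names, through RefSeq synonyms. No column of another sample was in the table (0).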

Additional observations from a re-analysis of the deposited data

How the results depend on the processing

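No lincRNA was called under any of the settings run: no filter or a stricter one, scaling by DESeq2-type size factors or by library totals, limma-voom with quality weights, DESeq2, the replicate block, a threshold of 0.1, no robust prior, a minimum of 50 counts and leaving out each library. A minimum of 500 counts, or leaving out the 47 members that share sequence or exon bases (chosen after seeing the data), only drops members and could not add a call; the latter left 8 members with an unadjusted p under 0.05 and a median of -0.034. The smallest adjusted p of a member was 0.33 with no filter and 0.40 without control replicate 3. Over all genes, 0 were called at first, 38 with no filter, 21 with DESeq2 and 0 to 18 when each library was left out; the cause was not tested. The lincRNAs with an unadjusted p under 0.05 numbered 10, and 5 to 15 when each library was left out. The share of all genes with such a p is not given here for any refit of this section. Whether the replicate numbers pair the libraries is not given in the labels. Deviations from the group means correlated at -0.05, -0.06 and 0.08 between same-numbered libraries, which cannot exclude pairing. Among all pairs of libraries, control replicate 3 and knockout replicate 3 differed least (chi-square per gene 19.6). With the replicate block, 8 members had an unadjusted p under 0.05 in edgeR's test, 0 were called and the median was 0.0095. The median log2 fold change of members, -0.03, was 0.0077 with limma-voom, 0.038 with a minimum of 500 counts and -0.097 to 0.042 when each library was left out. Of 38 named members 21 kept their direction under all 14 refits and 17 turned only when a library was left out. For those 17 the log2 fold changes then ranged as follows: Neat1 -0.20 to 0.24, Gm48832 -0.024 to 0.17, 2900097C17Rik -0.094 to 0.043, Gm36161 -0.55 to 0.0098, Gm42047 -0.10 to 0.34, 1700047M11Rik -0.057 to 0.29, AI504432 -0.14 to 0.51, Gm28875 -0.32 to 0.010, 1810058I24Rik -0.014 to 0.28, Gm44751 -0.69 to 0.051, Gdap10 -0.16 to 1.03, Snhg12 -0.0032 to 0.80, Mir155hg -0.72 to 0.26, Mir17hg -0.22 to 0.33, Ptgs2os2 -0.81 to 0.31, Gm14005 -0.18 to 0.87 and Lncpint -2.15 to 0.20. The median of snoRNA hosts was 0.46 with limma-voom, and both host lists were followed through the settings after seeing the data. No scaling moved the median of all genes beyond -0.02. The median error was widest at the lowest counts: with under 200 counts the median SE was 0.71.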
